A study of Homo sapiens with 24 samples.

Results

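The genes described here are those of MHC class II presentation: the alpha and beta chains of the 3 classical class II molecules (HLA-DRA, HLA-DRB1, HLA-DPA1, HLA-DPB1, HLA-DQA1 and HLA-DQB1), the 2 chains of the peptide editor HLA-DM (HLA-DMA and HLA-DMB), the invariant chain CD74 and the transactivator CIITA. They were chosen by name, as the rows of the raw count matrix whose Ensembl identifier maps to these symbols, which gave 10 of 60617 gene identifiers. Of the 10, 8 had enough counts to be tested among the 13098 genes that passed a filter on low counts, and HLA-DMB and CIITA did not. The 8 class II chain genes lie on chromosome 6 between bases 32439842 and 33087201, CD74 lies at chr5:150401637-150412929 and CIITA at chr16:10866222-10943021 (GRCh38, GENCODE release 29).

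The cells were THP1, a human monocytic leukaemia line that PMA, a phorbol ester, turns into adherent macrophage-like cells. CD33 is a Siglec that dampens myeloid signalling, and SHP-1, the phosphatase made from PTPN6, docks on the inhibitory motifs in the tail of receptors such as CD33. WT_shCTRL is wild-type THP1 with the empty pLKO.1 vector (6 libraries), WT_shPTPN6 is wild type with a pLKO.1 hairpin against PTPN6 (6), CD33KO_shCTRL is CD33 knockout with the empty vector (6), and CD33KO_shPTPN6 is the knockout with the hairpin (5 libraries, since replicate 2 was not analysed here). All 4 groups met lentivirus made in HEK-293FT cells for 24 hours and then had 48 hours of rest. Puromycin selection was at 1 µg/ml, and PMA was given at 10 ng/ml for 48 hours, with 48 hours without it before harvest. The labels name no interferon treatment and 1 hairpin. They do not say whether the knockout is 1 clone or whether replicates were separate cultures, so p-values measure only the spread between these libraries, which may be technical.

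Class II molecules are heterodimers of an alpha and a beta chain that show peptides from the endosomal route to CD4+ T cells. The chains assemble in the endoplasmic reticulum on CD74, which blocks the peptide groove and carries the complex to endosomes, where cathepsins trim CD74 and HLA-DM swaps its remnant for other peptides. Transcription of these genes depends on CIITA, a protein that does not bind DNA itself but docks on RFX, CREB and NF-Y proteins held at the X and Y boxes of class II promoters. In macrophages CIITA is best known as a target of interferon gamma acting through its receptor, the JAK kinases and IRF1, whereas CD74 also has control elements of its own.

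The boxes through which CIITA acts are shown first, and their bearing on the members' levels was not tested. RefSeq promoter windows (GRCh38.p14, 250 bases before to 50 after each annotated start) held 8 of the 10 members; HLA-DRA and CIITA had no entry. Windows were searched on both strands for the X letters (in order C, any base, A, G, any 2 bases, A, C, any base, G, A), which were chosen after the member windows had been read, and for the Y letters ATTGG. A pair was X followed by Y on the gene's strand with 10 to 30 bases between them, and X and Y letters do not overlap in a pair. The stretches with a pair are given 5′ to 3′ on the gene's strand, with the X and Y letters in capitals and 6 bases on either side.
HLA-DRB1: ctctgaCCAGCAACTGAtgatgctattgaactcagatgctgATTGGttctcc
HLA-DQA1: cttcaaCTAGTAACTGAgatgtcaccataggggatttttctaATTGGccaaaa
HLA-DQB1: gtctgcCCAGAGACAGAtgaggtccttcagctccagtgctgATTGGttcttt
HLA-DMA: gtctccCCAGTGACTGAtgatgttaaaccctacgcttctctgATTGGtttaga
HLA-DRB5: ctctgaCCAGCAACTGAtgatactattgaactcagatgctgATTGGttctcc
HLA-DOA: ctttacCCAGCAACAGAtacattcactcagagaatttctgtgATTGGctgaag
They lie at chr6:32589884-32589935 (minus strand), chr6:32637296-32637348 (plus), chr6:32666735-32666786 (minus), chr6:32953166-32953218 (minus), chr6:32530367-32530418 (minus) and chr6:33009648-33009700 (minus), in that order. The 4 members with a pair were HLA-DRB1, HLA-DQA1, HLA-DQB1 and HLA-DMA, with X starting 81, 104, 123 and 115 bases before the start of the gene and 24 or 25 bases between the boxes. HLA-DRB5 and HLA-DOA, which are class II genes outside the list, held the same arrangement. Of 35116 windows of this length 12 held the pair (0.03417%), 6 of them class II genes and 6 other genes, among them MR1 and PSMA3; the X letters alone were in 3.346% of windows and the Y letters alone in 34.61%. HLA-DMB and the second annotated start of HLA-DPA1 held the X letters without a pair, and HLA-DPB1 and CD74 held Y letters only. A match is a description of letters in the reference genome, whose HLA haplotype need not be that of THP1. A window without a match may still hold a box, since only these exact letters were searched. As the X letters were chosen from the member windows, the share of windows with the pair is no independent test.

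**Figure D1:**
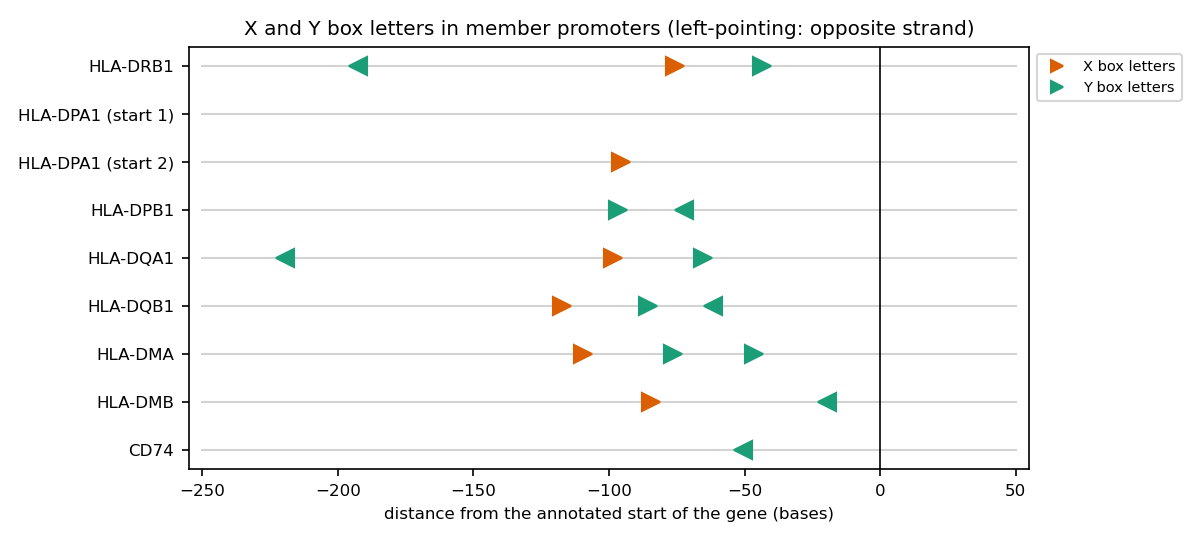
X letters (orange) and Y letters (green) in the promoter windows of the 8 members with a window, by distance from the annotated start in bases; right-pointing marks lie on the strand of the gene and left-pointing marks on the opposite strand. In HLA-DRB1, HLA-DQA1, HLA-DQB1 and HLA-DMA an X is followed by a Y on the gene's strand, whereas HLA-DPB1 and CD74 show Y letters only. A window without these exact letters may still hold a box.

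The libraries read the 3′ end of each mRNA, so a gene yields about 1 tag per captured transcript whatever its length. Levels are given in CPM, the count of a gene scaled to a fixed library total after TMM normalisation (trimmed mean of M-values). WT_shCTRL libraries held 4170191 to 5700712 counts and WT_shPTPN6 libraries 3318001 to 6269304. The knockout was shallower, with 2048161 to 3749258 counts in CD33KO_shCTRL and 2024032 to 2581042 in CD33KO_shPTPN6, so 1 CPM is about 2 counts there and the small members rest on few reads. CD33 averaged 45.5 CPM in WT_shCTRL and 20.2 in CD33KO_shCTRL, and PTPN6 44.6 in WT_shCTRL and 10.6 in WT_shPTPN6. Both fell in the group whose label says so. CD33 and PTPN6 together summed to 52.6 to 66.3 CPM in CD33KO_shCTRL libraries and 23.3 to 37.1 in CD33KO_shPTPN6 libraries. Of these 2 genes 1 was called lower with the knockdown in the knockout and 1 was not called. CD33 also rose to 88.8 CPM with the hairpin in wild type (0.97 ± 0.07, adjusted p = 4.95e-23), and PTPN6 was slightly lower in CD33KO_shCTRL, at 37.7 CPM (-0.23 ± 0.10, adjusted p = 0.0372). Where the edit lies within CD33 is not given, and a 3′ tag outside it checks nothing. Macrophage markers were present, with 9 of 10 tested and a summed level of 1124 to 3457 CPM over all libraries. In 2 libraries several members were high: CD33KO_shCTRL replicate 3 was the highest of its group for 7 of the 10 members, and WT_shCTRL replicate 4 for 5 of them. HSPG2, named after its values were seen, stood at 46.6 CPM in WT_shCTRL replicate 4, at 16.9 to 20.5 in the other WT_shCTRL libraries and at no less than 9024 in knockout libraries; its bearing on the members was not tested.

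HLA-DR is the most abundant class II molecule on most presenting cells, and its 2 chains went opposite ways in the libraries labelled CD33 knockout. HLA-DRA, the nearly invariant alpha chain, was 4.07-fold higher in CD33KO_shCTRL than in WT_shCTRL, while HLA-DRB1, the main beta chain, was 3.97-fold lower. Knockdown of PTPN6 in the knockout then lowered both, HLA-DRA to 0.422 and HLA-DRB1 to 0.497 of their levels.

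HLA-DRA stood between 7.20 and 17.7 CPM with a median of 8.38 in WT_shCTRL (mean 9.83 ± 3.93, SD, n = 6) and between 5.46 and 19.7 with a median of 8.74 in WT_shPTPN6 (11.4 ± 6.49, n = 6). It stood between 28.4 and 77.4 CPM with a median of 31.8 in CD33KO_shCTRL (40.01 ± 18.8, n = 6). The 5 CD33KO_shPTPN6 libraries (replicates 1, 3, 4, 5 and 6, always given in this order) stood at 14.3, 28.3, 15.7, 14.9 and 11.04 CPM (16.9 ± 6.65, n = 5). All 6 knockout libraries with the empty vector lay above every wild-type control library, 77.4 CPM being CD33KO_shCTRL replicate 3 and 17.7 CPM WT_shCTRL replicate 4; WT_shPTPN6 replicates 5 and 6, at 19.5 and 19.7 CPM, lay apart from the other 4 of their group. The log2 fold change was 1.98 ± 0.34 (SE) for the knockout with empty vector (edgeR adjusted p = 3.75e-05) and -1.24 ± 0.38 for the knockdown in the knockout (adjusted p = 0.0131). That second difference separated the groups by the narrowest of margins, the lowest CD33KO_shCTRL library standing at 28.4 and the highest CD33KO_shPTPN6 library at 28.3 CPM. From high to low the order of the groups was CD33KO_shCTRL, CD33KO_shPTPN6, WT_shPTPN6 and WT_shCTRL, and the last 3 were not told apart. The knockout with knockdown differed by 0.64 ± 0.43 from WT_shPTPN6 (adjusted p = 0.223) and by 0.75 ± 0.43 from WT_shCTRL (adjusted p = 0.136), and the knockdown in wild type gave 0.11 ± 0.38 (adjusted p = 0.829). The difference from WT_shCTRL passed the test without WT_shCTRL replicate 4 (1.01, adjusted p = 0.048) and when only the groups compared were fitted (adjusted p = 0.0296).

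HLA-DRB1 had 352 to 489 counts in each WT_shCTRL library, the highest of the class II chains in that group. It stood between 76.9 and 84.3 CPM with a median of 81.2 in WT_shCTRL (81.02 ± 2.87, SD, n = 6) and between 61.6 and 79.8 with a median of 67.6 in WT_shPTPN6 (68.2 ± 6.31, n = 6). In CD33KO_shCTRL it stood between 15.4 and 27.9 CPM with a median of 20.3 (20.4 ± 4.67, n = 6). The CD33KO_shPTPN6 libraries stood at 12.3, 13.3, 10.3, 6.19 and 8.59 CPM (10.1 ± 2.86, n = 5). Every knockout library was below every wild-type library, and every CD33KO_shPTPN6 library below every CD33KO_shCTRL library. From high to low the order of the groups was WT_shCTRL, WT_shPTPN6, CD33KO_shCTRL and CD33KO_shPTPN6. The step from WT_shPTPN6 to CD33KO_shCTRL was not itself tested. The log2 fold change was -0.26 ± 0.07 for the knockdown in wild type (adjusted p = 0.00121, with 5 of 6 libraries below all controls) and -2.00 ± 0.10 for the knockout with empty vector (adjusted p = 4.73e-37). It was -0.99 ± 0.17 for the knockdown in the knockout (adjusted p = 2.89e-07) and -2.73 ± 0.13 for the knockout with the hairpin (adjusted p = 4.86e-38). Both changes together left 10.1 of 81.02 CPM, a log2 fold change of -2.99 ± 0.12 (adjusted p = 1.16e-42).

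The ratio of HLA-DRB1 to HLA-DRA tags shows the turn within each library and does not depend on how libraries are scaled. It had a median of 9.71 in WT_shCTRL (4.35 to 11.6) and 8.38 in WT_shPTPN6 (3.49 to 11.3), against 0.525 in CD33KO_shCTRL (0.36 to 0.793) and 0.657 in CD33KO_shPTPN6 (0.414 to 0.862). HLA-DRA thus gave 7.92 to 18.7% of the tags of the pair in WT_shCTRL and 55.8 to 73.5% in CD33KO_shCTRL. These are ratios of 3′ tags, and the 2 genes may be captured with unequal efficiency, so the step between groups can be read and the absolute balance of chains cannot.

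HLA-DRB5, a second beta chain gene carried by some haplotypes, was the only gene of the other class II loci with enough counts to be tested, of 11 with an identifier. It averaged 8.94, 6.75, 5.55 and 2.82 CPM in WT_shCTRL, WT_shPTPN6, CD33KO_shCTRL and CD33KO_shPTPN6. It fell in the knockout with empty vector (-0.71 ± 0.22, adjusted p = 0.00401) and with the knockdown in the knockout (-0.96 ± 0.33, adjusted p = 0.0142), while the knockdown in wild type gave -0.41 ± 0.19 (adjusted p = 0.05). HLA-DRB1 tags outnumbered HLA-DRB5 tags by a median of 9.54 in WT_shCTRL and 3.57 in CD33KO_shCTRL. Of the 50-base stretches in the last 300 bases of HLA-DRB1 transcripts 2.39% were shared with HLA-DRB5, and adding HLA-DRB5 and HLA-DRB6 to HLA-DRB1 before the fit gave -1.79 for the knockout with empty vector. HLA genes are highly polymorphic, and reads from alleles unlike the reference can be lost or placed on a relative; whether this touched HLA-DRB1 was not tested. HLA-DOA and HLA-DOB, the chains of an HLA-DM antagonist found mainly in B cells, averaged 0.139 to 0.417 and 0.568 to 0.982 CPM across groups, and HLA-DQA2 and HLA-DQB2 stayed at or below 0.354 and 0.337.

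**Figure D2:**
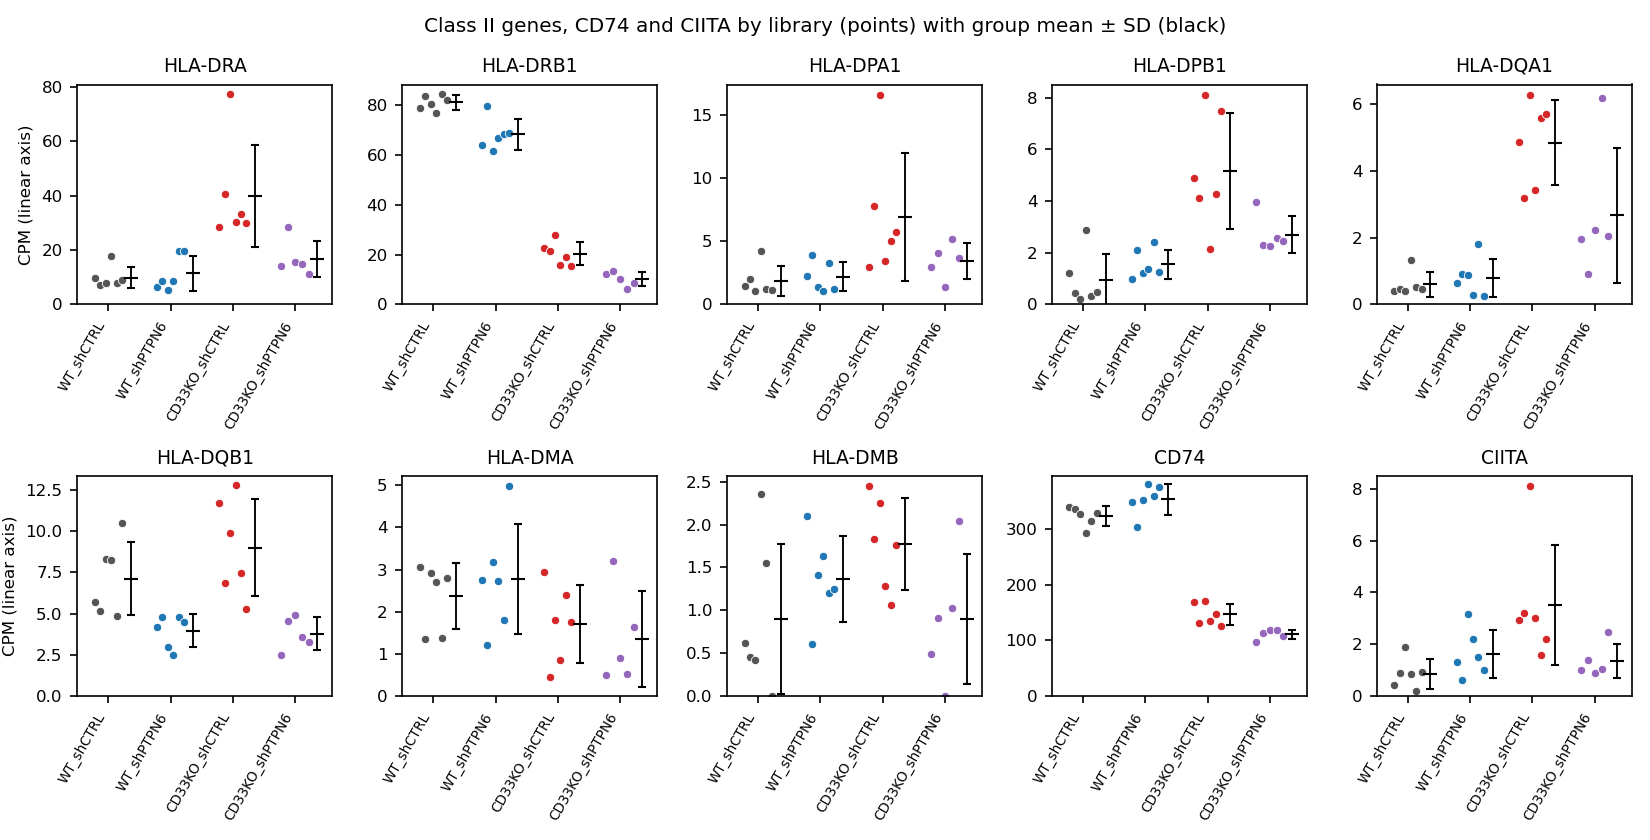
Levels of the 10 members in CPM on linear axes starting at 0, 1 panel per gene with its own scale; each point is a library, and the black bar beside each group is its mean ± SD (n = 6, 6, 6 and 5). HLA-DRA, the HLA-DP genes, HLA-DQA1 and CIITA are highest in CD33KO_shCTRL, whereas HLA-DRB1 and CD74 are lower in both knockout groups.

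Both chains of HLA-DP, a class II molecule related to HLA-DR in build and less abundant, rose with HLA-DRA. HLA-DPA1 was 3.75-fold and HLA-DPB1 5.58-fold higher in CD33KO_shCTRL than in WT_shCTRL, on 3 to 37 and 1 to 18 counts per library. HLA-DPA1, the alpha chain, stood between 1.04 and 4.21 CPM in WT_shCTRL (median 1.32) and between 1.09 and 3.91 in WT_shPTPN6 (median 1.84). In the knockout it stood between 2.93 and 16.6 CPM with the empty vector (median 5.39) and at 2.96, 4.11, 1.35, 5.15 and 3.68 with the hairpin. Of the 6 CD33KO_shCTRL libraries 4 lay above every WT_shCTRL library, and the other groups overlapped broadly. HLA-DPB1, the beta chain, stood between 0.208 and 2.86 CPM in WT_shCTRL (median 0.458) and between 0.971 and 2.41 in WT_shPTPN6 (median 1.31). The knockout libraries lay between 2.14 and 8.10 CPM with the empty vector (median 4.57) and at 3.95, 2.29, 2.24, 2.58 and 2.45 with the hairpin. Here 5 of 6 CD33KO_shCTRL libraries lay above every control library.

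For HLA-DPA1 the log2 fold change was 1.82 ± 0.36 in the knockout with empty vector (adjusted p = 3.11e-05), and for HLA-DPB1 it was 2.33 ± 0.37 (adjusted p = 3.99e-08). Without WT_shCTRL replicate 4, the control library with 17 of the 30 HLA-DPB1 counts of its group, the latter was 3.15; without CD33KO_shCTRL replicate 3 the former was 1.38. The knockdown in the knockout lowered both near the threshold, with -0.99 ± 0.41 for HLA-DPA1 (adjusted p = 0.0482) and -0.92 ± 0.39 for HLA-DPB1 (adjusted p = 0.0496). These calls were lost in 18 of 31 and 15 of 30 alternative settings. HLA-DPB1 was higher in the knockout with knockdown than in WT_shCTRL (1.42 ± 0.46, adjusted p = 0.00534), and HLA-DPA1 gave 0.84 ± 0.46 (adjusted p = 0.106; 1.29 and past the test without WT_shCTRL replicate 4). In wild type the knockdown gave 0.15 ± 0.41 for HLA-DPA1 and 0.56 ± 0.43 for HLA-DPB1 (adjusted p = 0.765 and 0.252), the latter reaching 1.40 (adjusted p = 0.009) without WT_shCTRL replicate 4. HLA-DPA1 and HLA-DPB1 overlap on opposite strands, and whether strand was used in counting is not given in the sources used here, so reads of the 2 genes may be mixed where they overlap.

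The chains of HLA-DQ, the third classical molecule, parted. The alpha chain gene had the largest rise of the tested members in the knockout with empty vector. HLA-DQA1 and HLA-DPB1 passed the filter on low counts mainly by being high in CD33KO_shCTRL, so their rank there is partly set by the filter. In a fit without that filter HLA-DQA1 gave 2.86 ± 0.41. The beta chain gene passed the test for the knockdown in both genotypes and for the knockout in neither. HLA-DQA1 stood between 0.409 and 1.35 CPM in WT_shCTRL (median 0.458) and between 0.249 and 1.80 in WT_shPTPN6 (median 0.764). Its knockout levels lay between 3.21 and 6.296 CPM with the empty vector (median 5.24) and at 1.98, 0.914, 2.24, 6.19 and 2.04 with the hairpin. It was 8.08-fold higher in CD33KO_shCTRL than in WT_shCTRL with no overlap (2.90 ± 0.39, adjusted p = 2.59e-10), on 2 to 8 counts per WT_shCTRL library and 7 to 21 per CD33KO_shCTRL library. It stayed higher in the knockout with the hairpin, by 1.72 ± 0.49 over WT_shPTPN6 (adjusted p = 0.00153) and by 1.99 ± 0.49 over WT_shCTRL (adjusted p = 0.000212). The knockdown in the knockout lowered it (-0.90 ± 0.38, adjusted p = 0.049), a call lost in 14 of 31 alternatives. Without CD33KO_shPTPN6 replicate 5, which stood at 6.19 CPM, the knockout effect under knockdown was 1.20 and missed the test (adjusted p = 0.0598). The knockdown in wild type gave 0.28 ± 0.51 (adjusted p = 0.661).

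HLA-DQB1 stood between 4.83 and 10.5 CPM in WT_shCTRL (median 6.98) and between 2.46 and 4.82 in WT_shPTPN6 (median 4.34). In the knockout it stood between 5.28 and 12.8 CPM with the empty vector (median 8.67) and at 2.47, 4.57, 4.94, 3.61 and 3.27 with the hairpin. In either genotype the hairpin libraries all lay below the libraries with the empty vector, in wild type by the margin between 4.82 and 4.83 CPM. The knockdown lowered it in wild type (-0.85 ± 0.22, adjusted p = 0.000414) and in the knockout (-1.23 ± 0.29, adjusted p = 0.000218). The knockout itself gave 0.33 ± 0.21 with empty vector (adjusted p = 0.181) and -0.05 ± 0.31 with the hairpin (adjusted p = 0.911), and all 31 alternatives kept the calls of the knockdown in both genotypes. HLA-DQB1 overlaps the antisense gene HLA-DQB1-AS1, which had 0 counts in every library, and 8.57% of the 3′ stretches of HLA-DQA1 were shared with HLA-DQA2.

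HLA-DM removes the CD74 remnant from new class II molecules, and its chains were near the limit of what these depths can show. HLA-DMA stood between 1.35 and 3.06 CPM in WT_shCTRL (median 2.74) and between 1.20 and 4.98 in WT_shPTPN6 (median 2.74). In knockout libraries it stood between 0.458 and 2.93 CPM with the empty vector (median 1.78) and at 0.494, 3.20, 0.898, 0.515 and 1.64 with the hairpin. Its groups overlapped in every comparison, and the 1 call was a lower level in the knockout under knockdown (-1.02 ± 0.45, adjusted p = 0.0453), lost in 7 of 26 alternatives. The knockout with empty vector gave -0.43 ± 0.39 (adjusted p = 0.364), and both changes together -0.76 ± 0.46 (adjusted p = 0.141; -1.32 and adjusted p = 0.03 without CD33KO_shPTPN6 replicate 3). HLA-DMB had 0 to 14 counts per library, with means of 0.898, 1.37, 1.77 and 0.897 CPM in WT_shCTRL, WT_shPTPN6, CD33KO_shCTRL and CD33KO_shPTPN6. A fit without the filter on low counts gave it 0.76 ± 0.48 for the knockout with empty vector (adjusted p = 0.302 over 34700 genes) and called it in no comparison; without WT_shCTRL replicate 4 the value was 1.31 (adjusted p = 0.0693). No difference in HLA-DMB was detected at these counts, and what size could have been detected was not tested.

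CD74, the invariant chain, supplied most of the family's tags and, like HLA-DRB1 and unlike HLA-DRA, was lower in the knockout. With the knockdown in wild type HLA-DRB1 fell (-0.26 ± 0.07) and CD74 did not. CD74 stood between 293 and 341 CPM in WT_shCTRL (median 329; 324 ± 17.6, SD, n = 6) and between 304 and 382 in WT_shPTPN6 (median 357; 354 ± 27.7, n = 6). In CD33KO_shCTRL it stood between 125 and 170.45 CPM (median 142; 147 ± 19.6, n = 6). The CD33KO_shPTPN6 libraries stood at 97.8, 112, 118, 119 and 107 CPM (111 ± 8.72, n = 5). All knockout libraries lay far below all wild-type libraries, and all CD33KO_shPTPN6 libraries below all CD33KO_shCTRL libraries. The knockout lowered CD74 by 54.7% with empty vector (log2 fold change -1.14 ± 0.06, adjusted p = 3.79e-31) and the knockdown lowered it by a further 24.4% in the knockout (-0.40 ± 0.07, adjusted p = 2.33e-06). In wild type the hairpin had a small effect the other way (0.13 ± 0.05, adjusted p = 0.0251), with 5 of 6 libraries above all controls; this call was lost without WT_shCTRL replicate 4 (adjusted p = 0.0621) or WT_shPTPN6 replicate 4 (adjusted p = 0.0504). Summed over the 10 members, tags stood at 409.9 to 442 CPM in WT_shCTRL and 406 to 478 in WT_shPTPN6. In the knockout the sum was 201 to 329 CPM with the empty vector and 138 to 171 with the hairpin, most of it CD74. In bulk RNA, fewer cells with a transcript and less transcript per cell cannot be told apart.

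CIITA, the transactivator, had 1 to 18 counts per library. It stood between 0.172 and 1.87 CPM in WT_shCTRL (median 0.871) and between 0.602 and 3.17 in WT_shPTPN6 (median 1.40). Knockout libraries stood between 1.60 and 8.10 CPM with the empty vector (median 2.96) and at 0.988, 1.37, 0.898, 1.03 and 2.45 with the hairpin. Of the 6 CD33KO_shCTRL libraries 5 lay above every WT_shCTRL library, the highest being replicate 3, which was also highest for HLA-DRA, HLA-DPA1, HLA-DPB1 and HLA-DQA1. In the fit without the filter CIITA was higher in the knockout with empty vector (1.93 ± 0.42, adjusted p = 4.49e-05), and it passed in all 26 such fits, between 1.47 and 2.31 with 1, 2 or 4 libraries left out. The knockdown gave 1.02 ± 0.43 in wild type (adjusted p = 0.0665) and -1.26 ± 0.49 in the knockout (adjusted p = 0.0631). The difference between these 2 effects was -2.29 ± 0.65 (adjusted p = 0.00674), which missed the test without CD33KO_shCTRL replicate 3 (-1.86, adjusted p = 0.0706) or WT_shPTPN6 replicate 3 (-1.94, adjusted p = 0.0544). Both knockdown effects hung on single libraries. In wild type the effect was 0.67 (adjusted p = 0.354) without WT_shPTPN6 replicate 3, and it passed without WT_shCTRL replicate 3 or WT_shPTPN6 replicate 2 or 6. In the knockout it was -0.84 (adjusted p = 0.388) without CD33KO_shCTRL replicate 3, and it passed without CD33KO_shCTRL replicate 5 or 6 or CD33KO_shPTPN6 replicate 6. That fit called 23.8% of 34700 genes in the knockout with empty vector, 24.8% with the knockdown in wild type and 14.4% with the knockdown in the knockout. It called 26.1% for both changes together, 22.2% for the knockout under the hairpin and 9.37% for the difference of effects. Of the 3′ stretches of CIITA 12.2% were shared with AC133065.3, a neighbour that lies within it on the same strand, and DEXI overlaps it on the other.

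In the comparison of CD33 knockout with wild type under the empty vector, 4 of the 8 tested members were higher (HLA-DRA, HLA-DPA1, HLA-DPB1, HLA-DQA1) and 2 lower (HLA-DRB1, CD74). Over all tested genes 28.3% were higher, 28.4% lower and 56.7% changed in either direction, so a call alone sets no member apart from other genes. The median log2 fold change of the 8 was 1.08, beside -0.01 over all tested genes. HLA-DPB1 and HLA-DQA1 passed the filter on low counts mainly by being high in CD33KO_shCTRL, so the count and the median lean towards a rise. The groups did not overlap for HLA-DRA, HLA-DRB1, HLA-DQA1 and CD74, as for 34.1% of all tested genes, and for these 4 the exact two-sided permutation test over libraries gave p = 0.00216, the smallest it can give, unadjusted among 50 such tests. HLA-DPA1 and HLA-DPB1 gave exact permutation p = 0.00649 and 0.00433. All 6 calls held in all 31 alternatives.

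**Figure D3:**
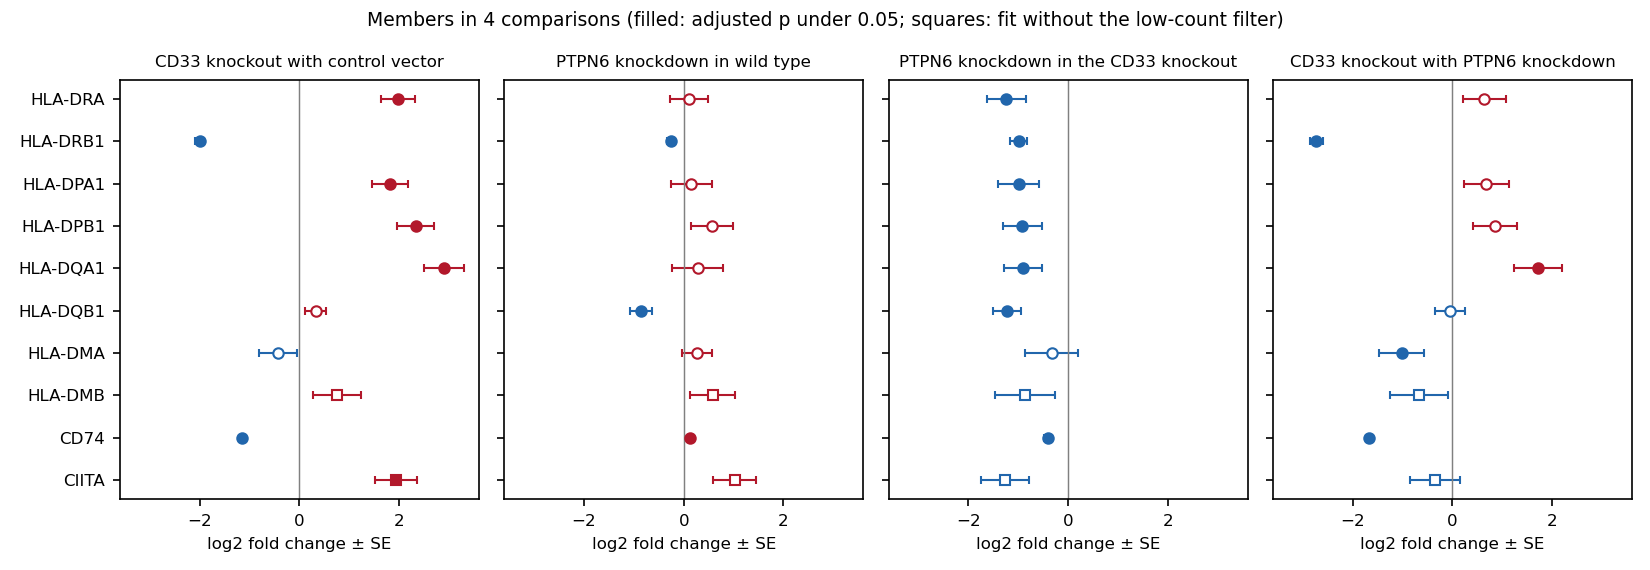
Log2 fold changes ± SE of the 10 members in 4 comparisons; filled marks passed the edgeR test at an adjusted p of 0.05, and squares mark HLA-DMB and CIITA, which come from the fit without a filter on low counts. In the first panel HLA-DRA, both HLA-DP genes, HLA-DQA1 and CIITA lie on the right and HLA-DRB1 and CD74 on the left, and in the third panel all estimates lie left of 0.

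Few members passed the test for PTPN6 knockdown in wild type. CD74 was higher, HLA-DRB1 and HLA-DQB1 lower, and 5 of the 8 did not pass, among 60.6% of all genes called (30.2% higher and 30.4% lower). The SE of those 5 ran from 0.31 for HLA-DMA to 0.51 for HLA-DQA1, so a change in them may have been missed. The median of the 8 was 0.14, beside 0 over all tested genes. The groups did not overlap for 1 of the 8, HLA-DQB1, beside 37.4% of all genes. The same knockdown in the knockout lowered 7 of the 8 and raised none, among 42.1% of genes called, 20.5% higher and 21.6% lower; the exception was HLA-DMA at -0.33 ± 0.53 (adjusted p = 0.654). The median was -0.95, beside -0.01 over all genes, and the groups did not overlap for HLA-DRA, HLA-DRB1, HLA-DQB1 and CD74, beside 24.2% of all genes. HLA-DPA1, HLA-DPB1 and HLA-DQA1 passed narrowly. HLA-DPB1 and HLA-DQA1 had passed the filter on low counts mainly by being high in CD33KO_shCTRL, the baseline here. The count and the median therefore lean towards a fall. HLA-DRA, HLA-DRB1, HLA-DQB1 and CD74 were called in all 31 alternatives, and the count was 4 without CD33KO_shCTRL replicate 3 or 6, or without CD33KO_shPTPN6 replicate 3, 4 or 6. Without CD33KO_shCTRL replicate 3, HLA-DPA1 gave -0.54 (adjusted p = 0.261).

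The interaction, which subtracts the effect of the hairpin in wild type from its effect in the knockout, was negative for all 8 tested members, with a median of -0.94 beside 0.00 over all genes. It passed the test for 3 members, HLA-DRB1 (-0.73 ± 0.18, adjusted p = 0.000802), HLA-DPB1 (-1.48 ± 0.58, adjusted p = 0.0443) and CD74 (-0.53 ± 0.09, adjusted p = 8.22e-07), among 28.4% of all genes called and 13.9% called lower. HLA-DRB1 and CD74 were called in all 30 alternatives and HLA-DPB1 in 17 of 30, with -2.32 without WT_shCTRL replicate 4. HLA-DRA gave -1.34 ± 0.55 (adjusted p = 0.0754) and passed in 7 of 30 alternatives, DESeq2 among them (adjusted p = 0.0231); without WT_shCTRL replicate 4 both it and HLA-DPA1 passed (-1.63, adjusted p = 0.0275, and -1.62, adjusted p = 0.0157). Since the tested members share libraries, their common sign is 1 observation on these libraries and not 8. HLA-DPB1 and HLA-DQA1 also passed the filter mainly by being high in CD33KO_shCTRL, which leans their interaction towards a negative value.

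With knockout and knockdown together, 2 members were higher than in WT_shCTRL (HLA-DPB1, HLA-DQA1) and 3 lower (HLA-DRB1, CD74 and HLA-DQB1 at -0.90 ± 0.28, adjusted p = 0.00305), among 63.8% of all genes called (32.1% higher, 31.7% lower). The median of the 8 was -0.00, as over all genes, and the groups did not overlap for HLA-DRB1 and CD74, beside 45.7% of all genes. Without WT_shCTRL replicate 4 the count of higher members was 4, with HLA-DRA and HLA-DPA1 added. Comparing the knockout with wild type under the hairpin, 1 member was higher (HLA-DQA1) and 3 lower (HLA-DRB1, CD74 at -1.68 ± 0.07, adjusted p = 1.01e-38, and HLA-DMA), among 56.5% called (29.0% higher, 27.5% lower). The median of the 8 was 0.30, beside 0.01 over all genes, and the groups did not overlap for HLA-DRB1 and CD74, beside 37.2% of all genes. The 3 comparisons with WT_shCTRL share its libraries and are given side by side only.

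**Figure D4:**
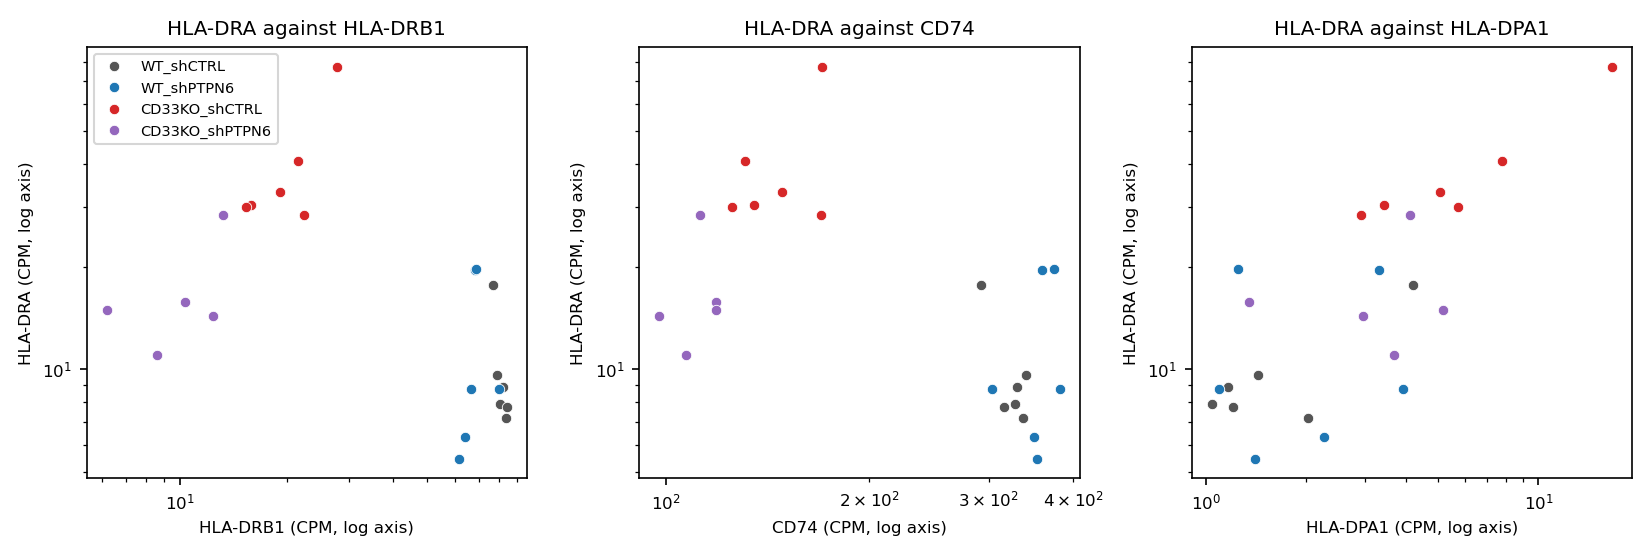
HLA-DRA against HLA-DRB1, CD74 and HLA-DPA1 in the 23 libraries, in CPM on log axes, coloured by group. HLA-DRA and HLA-DPA1 are both high in CD33KO_shCTRL, while HLA-DRB1 and CD74 separate the genotypes with wild type on the right.

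Correlations of log2 CPM between members across the 23 libraries are given as a description, since libraries of a group share their treatment and depth. HLA-DRB1 and CD74 had r = 0.96. HLA-DRA had r = 0.78 with HLA-DPA1, 0.80 with HLA-DPB1 and 0.74 with HLA-DQA1, but -0.51 with HLA-DRB1 and -0.58 with CD74. HLA-DQB1 had r = 0.48 with HLA-DRA, 0.30 with HLA-DQA1, 0.09 with HLA-DRB1 and -0.02 with CD74. HLA-DMA had r = 0.53 with HLA-DRB1, 0.58 with CD74 and -0.18 with HLA-DRA. After group means were removed, HLA-DRA and HLA-DRB1 had r = 0.40, HLA-DPA1 and HLA-DPB1 0.62 and HLA-DRB1 and CD74 0.16. The opposite course of the HLA-DR chains was thus between groups and was not seen among libraries of a group. The 3 genes most like HLA-DRA over the 23 libraries, of 10890 with at least 5 CPM on average, were CARS2 (r = 0.877), OTUD7B (0.863) and DAG1 (0.840). Those most like CD74 were SLFN11, ARHGDIB and IL10RA (0.981 each); ARHGDIB averaged 717, 714, 379 and 299 CPM in WT_shCTRL, WT_shPTPN6, CD33KO_shCTRL and CD33KO_shPTPN6.

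Of 10 genes for proteins that hold CIITA at promoters or act with it there, all tested, 3 rose and 2 fell in the knockout with empty vector. This stood beside 56.7% of all genes called, with a median of 0.07 for the list. For knockout and knockdown together 5 rose and 3 fell, beside 63.8% of all genes. RFX5, the DNA-binding subunit of RFX, averaged 41.4 CPM in WT_shCTRL and 32.7 in CD33KO_shCTRL (-0.32 ± 0.10, adjusted p = 0.00368), while its partners RFXAP and RFXANK gave 0.30 ± 0.24 and 0.14 ± 0.07 and did not pass. ATF1, a relative of CREB1, fell from 18.1 to 9.55 CPM (-0.91 ± 0.15, adjusted p = 1.38e-07). Of the NF-Y subunits, which bind the Y box, NFYA rose in the knockout (0.44 ± 0.09, adjusted p = 8.22e-06) and fell with the knockdown in wild type (-0.50 ± 0.09, adjusted p = 4.79e-07). NFYC rose in both (0.24 ± 0.04 each, adjusted p = 4.97e-07 and 6.07e-07). In wild type the knockdown raised 2 and lowered 3 of the 10, RFXANK among the former (0.36 ± 0.06, adjusted p = 3.32e-07), and in the knockout it raised 4 and lowered 1, NFYB (-0.37 ± 0.13, adjusted p = 0.0134). The co-activator EP300 rose with the knockdown in the knockout by 0.27 ± 0.08 (adjusted p = 0.0026). Of all genes 60.6% were called with the knockdown in wild type and 42.1% with it in the knockout. The bearing of these genes on the members was not tested.

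The interferon gamma route, the main inducer of CIITA in macrophages, moved in parts. IFNG itself had 0 counts in all 23 libraries, which allows up to 3 counts in any of them. IFNGR1, the ligand-binding receptor chain, fell from 202 CPM in WT_shCTRL to 43.2 in CD33KO_shCTRL (-2.20 ± 0.08, adjusted p = 3.17e-39). It was 0.62 ± 0.10 higher with the knockdown in the knockout (adjusted p = 2.18e-07) and 0.42 lower in wild type (-0.42 ± 0.06, adjusted p = 5.11e-09). IRF1, a factor that binds the CIITA promoter, rose with the knockdown in both genotypes (1.15 ± 0.06 and 1.21 ± 0.07, adjusted p = 2.18e-32 and 2.54e-28). JAK2 fell in the knockout with empty vector (-0.57 ± 0.09, adjusted p = 1.14e-07), and PRDM1, a repressor of CIITA in plasma cells, rose (0.49 ± 0.08, adjusted p = 2.73e-08). In all, 4 of 11 tested genes rose and 4 fell in the knockout with empty vector, beside 56.7% of all genes called. With the knockdown in wild type 3 rose and 4 fell, beside 60.6% of all genes called. With the knockdown in the knockout 5 rose and 3 fell, beside 42.1%. The bearing of these genes on the members was not tested.

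**Figure D5:**
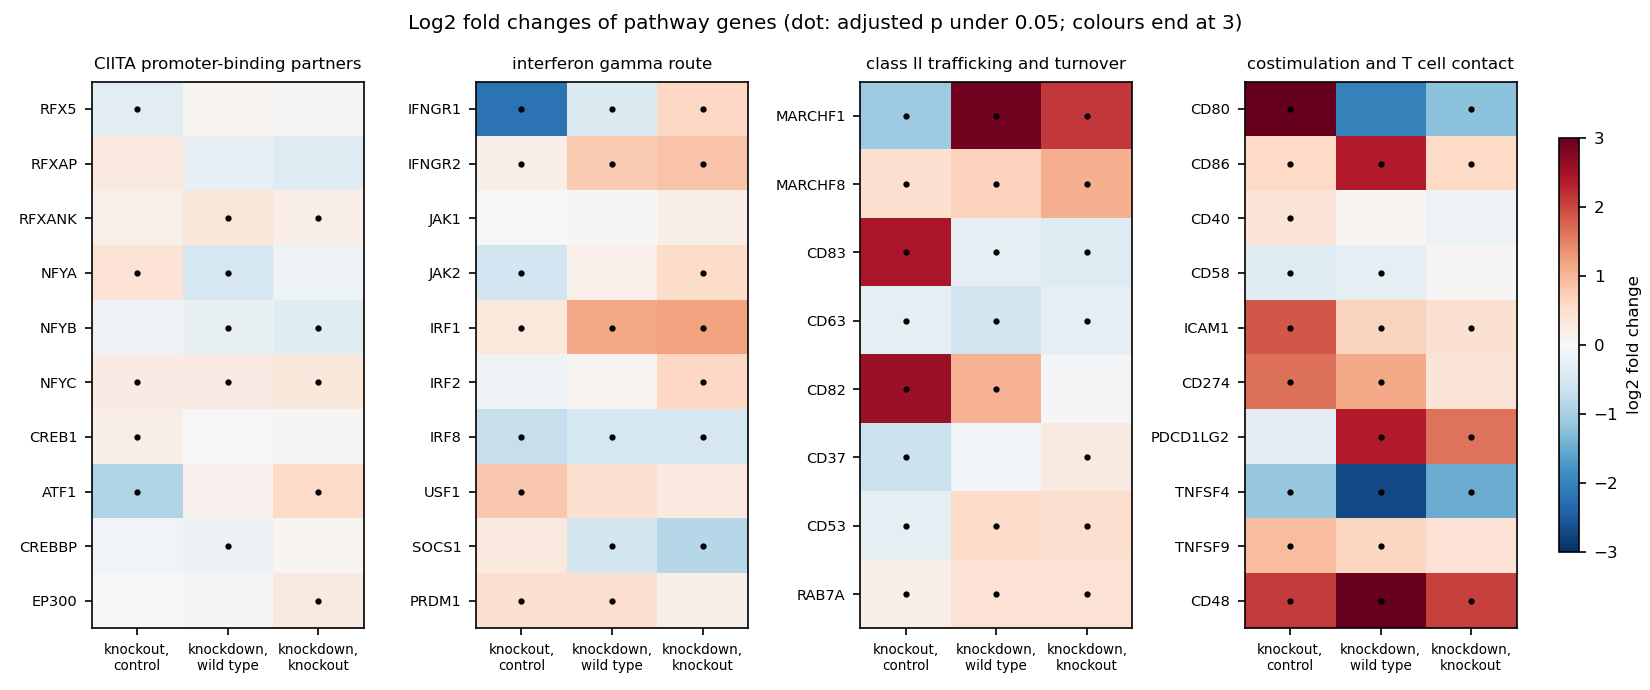
Log2 fold changes of tested genes from 4 pathway lists in 3 comparisons, blue for lower and red for higher, with colours ending at 3; a dot marks an adjusted p under 0.05. IFNGR1 is lowest in the knockout with empty vector, IRF1 is higher with the knockdown in both genotypes, and CD82 and CD83 are high in the knockout.

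Of 11 tested genes for proteases and adaptors that process CD74 and antigen, 3 rose and 3 fell in the knockout with empty vector, CTSB (1.02 ± 0.04) and CTSH (0.82 ± 0.07) among the former and AP1B1 (-0.77 ± 0.06) and CTSL (-0.59 ± 0.05) among the latter. The knockdown in wild type raised 5 and lowered 1, with CTSH from 66.4 to 221 CPM (1.74 ± 0.06, adjusted p = 7.89e-51) and the aspartic protease CTSD from 1045 to 2312 CPM (1.15 ± 0.05, adjusted p = 5.24e-44). In the knockout it raised 4, among them CTSD (1.10 ± 0.05) and CTSS (0.91 ± 0.05), the protease best known for trimming CD74, and lowered 2, CTSL (-0.46 ± 0.06) and AP1B1 (-0.23 ± 0.08). These are RNA levels, and their bearing on CD74 was not tested.

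Of 9 tested genes that move class II molecules or mark them for turnover, 4 rose and 4 fell in the knockout with empty vector. For this list, the proteases above and the costimulation genes below, the shares of all genes called are 56.7% in the knockout with empty vector, 60.6% with the knockdown in wild type and 42.1% with the knockdown in the knockout. CD82, a tetraspanin of class II compartments, rose from 87.0 to 529 CPM (2.60 ± 0.06, adjusted p = 3.34e-66) and CD83, which opposes class II ubiquitination, from 34.2 to 187 CPM (2.46 ± 0.07, adjusted p = 6.15e-58), while the tetraspanins CD37 (-0.64 ± 0.06) and CD63 (-0.28 ± 0.04) fell. The knockdown in wild type raised 6 and lowered 2, and MARCHF1, the ligase that ubiquitinates class II beta chains, rose from 2.35 to 17.5 CPM (2.88 ± 0.20, adjusted p = 1.54e-25), with CD82 at 1.05 ± 0.06; CD63 (-0.55 ± 0.04) and CD83 (-0.30 ± 0.08) fell. In the knockout the knockdown also raised 6 and lowered 2, led by the related ligase MARCHF8 (1.09 ± 0.11, adjusted p = 8.74e-15), with CD63 and CD83 again lower (-0.30 ± 0.05 and -0.38 ± 0.07).

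Of 10 tested genes of costimulation and T cell contact, 7 rose and 2 fell in the knockout with empty vector. ICAM1 rose from 45.4 to 166 CPM (1.87 ± 0.07, adjusted p = 1.04e-48) and CD80, a ligand of CD28, from 0.268 to 10.7 CPM (5.17 ± 0.38, adjusted p = 1.94e-23), whereas TNFSF4 (-1.14 ± 0.10) and CD58 (-0.38 ± 0.07) fell. The knockdown in wild type raised 6 and lowered 2, with CD86, the other CD28 ligand, from 6.10 to 31.4 CPM (2.39 ± 0.14, adjusted p = 6.75e-31) and PDCD1LG2 at 2.38 ± 0.22, and TNFSF4 at -2.71 ± 0.11. In the knockout it raised 4, ICAM1 (0.46 ± 0.06) and CD48 (2.05 ± 0.32) first, and lowered TNFSF4 (-1.48 ± 0.17) and CD80 (-1.23 ± 0.29). Of 12 tested MHC class I genes 0 rose and 9 fell with the knockdown in wild type, among them TAP1 (-1.97 ± 0.06), where 1 of the 8 class II members rose and 2 fell. With the knockdown in the knockout 0 of the 12 class I genes rose and 7 fell, with a median of -0.28. Of the 8 class II members 0 rose and 7 fell, with a median of -0.95. Among those 7, HLA-DPA1, HLA-DPB1 and HLA-DQA1 passed narrowly. HLA-DPB1 and HLA-DQA1 had passed the filter on low counts mainly by being high in CD33KO_shCTRL. The difference between the lists was not tested. Over all tested genes 30.2% rose and 30.4% fell with the knockdown in wild type. With the knockdown in the knockout 20.5% rose and 21.6% fell.

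Markers of other cell types that carry class II were read beside these results. The 6 B cell markers summed to 67.2 to 76.4 CPM in WT_shCTRL and 12.02 to 18.97 with the hairpin in wild type. In the knockout they summed to 9.84 to 23.8 CPM with the empty vector and 5.67 to 9.87 with the hairpin, with 3 of 6 tested and MS4A1 at or below 0.525 CPM on average in every group. CD33KO_shCTRL replicate 3, the library highest for most members, also had the highest B cell sum of its group, at 23.8 CPM, the next being 14.2; its part in the members' levels was not tested. The 8 dendritic cell markers, of which 5 were tested, summed to 35.4 to 50.3 CPM in WT_shCTRL and 28.6 to 43.3 in WT_shPTPN6. In the knockout they summed to 90.4 to 114 CPM with the empty vector and 67.1 to 75.3 with the hairpin; in CD33KO_shCTRL CLEC9A and FCER1A were at 0 in all libraries. Of the 5 tested markers 2 rose and 2 fell in the knockout with empty vector, with a median of -0.12. CCR7 rose from 0.515 to 51.7 CPM (6.52 ± 0.22, adjusted p = 9.28e-51) and ZBTB46 from 32.0 to 47.8 (0.57 ± 0.10), whereas CD1C and CLEC10A fell. With the knockdown in the knockout 2 rose and 1 fell, with a median of 0.26, the 1 being CCR7 (-2.48 ± 0.17). The bearing of these markers on the members was not tested. T and NK cell markers summed to 2.14 to 10.1 CPM over all libraries. Markers of epithelial and HEK-293 cells summed to 45.8 to 64.8 CPM in WT_shCTRL and 104 to 139 in CD33KO_shCTRL, where CDH1 and CDH2 led, with EPCAM at or below 0.385 CPM on average. Of 9 macrophage markers 5 fell and 2 rose in the knockout with empty vector, and all 9 rose with the knockdown in wild type. For all these markers, the shares of all genes called are 56.7% in the knockout with empty vector and 60.6% with the knockdown in wild type. With the knockdown in the knockout the share is 42.1%. The part of these markers in the members' results was not tested.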

How the data were processed

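3′ mRNA libraries of PMA-treated THP1 cells were counted per gene; the values are raw counts per gene as the authors deposited them. STAR 2.7.3a, bcl2fastq, R 3.6.1, DESeq2 1.26.0, Subread 2.0.0 with featureCounts and the hg38 build are listed in the submitters' processing notes; annotation release, strand setting and duplicate handling are not given in the sources used here. Of 24 labelled samples 23 were used, with 2024032 to 6269304 counts each. Symbols came from a reference table (60261 of 60617 identifiers, 99.41%).

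With edgeR 4.0.16 (R 4.3.3), low genes were removed by filterByExpr (minimum count 10), libraries scaled by TMM, and 1 model with a mean per group fitted to all libraries (robust glmQLFit). The 6 contrasts were tested with edgeR's quasi-likelihood test, Benjamini-Hochberg adjusted over 13098 genes at 0.05. SE was obtained by dividing the size of each log2 fold change by the square root of its F. Log2 CPM used a prior count of 2. Alternatives were DESeq2 1.42.0, its size factors, no filter, only the groups compared, a replicate block, paralogs summed and each library left out. The script was tested on simulated data. Replicate libraries differed by more than sampling noise.

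The members and lists were chosen with earlier results of these data known. Besides the members and the lists of class II loci, CIITA partners and interferon gamma route, up to 2 called genes per list, comparison and direction were named by smallest adjusted p; marker genes were named after their values were seen. Some genes of these lists, counted in the totals, are not reported here by name or in the plots.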

Additional observations from a re-analysis of the deposited data

Results flagged for a closer look

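Within groups, 9 values lay far from the others by Dixon's criterion, among 40 sets of member and group. The criterion flags about 1 in 20 sets of independent, normally distributed values. Levels in CPM from low counts are skewed upwards and members share libraries, so 9 of 40 cannot be read against that rate. WT_shCTRL replicate 4 stood at 17.7 CPM for HLA-DRA (next 9.60), 4.21 for HLA-DPA1 (next 2.03) and 1.35 for HLA-DQA1 (next 0.517). CD33KO_shCTRL replicate 3 stood at 77.4 CPM for HLA-DRA (next 40.8), 16.6 for HLA-DPA1 (next 7.79) and 8.10 for CIITA (next 3.21). In CD33KO_shPTPN6, replicate 3 stood at 28.3 CPM for HLA-DRA, replicate 1 at 3.95 for HLA-DPB1 and replicate 5 at 6.19 for HLA-DQA1. All 9 were high values, and 6 of them came from 2 libraries.

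The edgeR interaction test of the PTPN6 knockdown between genotypes passed for HLA-DRB1 (-0.73, adjusted p = 0.000802), HLA-DPB1 (-1.48, adjusted p = 0.0443) and CD74 (-0.53, adjusted p = 8.22e-07). It also passed for 28.4% of all tested genes. HLA-DPB1 passed the filter on low counts mainly by being high in CD33KO_shCTRL, which leans its interaction towards a negative value. In the edgeR fit without that filter HLA-DPB1 missed the test (-1.51, adjusted p = 0.0715).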

How the results depend on the processing

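Each member in each comparison under each alternative setting was counted as 1 case. Called members kept their call in 783 cases and lost it in 73, with none reversed. Members not called stayed so in 557 cases, passed in 22 and changed sign in 10. The knockdown in the knockout lowered 4 members under the DESeq2 Wald test and when 2 or 4 libraries were left out together (CD33KO_shCTRL replicate 3 and WT_shCTRL replicate 4, then also WT_shPTPN6 replicates 5 and 6; both chosen after seeing the data), and 4 to 7 with single libraries left out. The knockdown in wild type raised 0 members under DESeq2 and 0 to 1 with libraries left out. Against WT_shCTRL, knockout plus knockdown raised 4 with 2 or 4 libraries left out together and 2 to 4 with single ones. The knockout under knockdown raised 0 when only the groups compared were fitted, which tested 5 members, 2 with 4 libraries left out and 0 to 1 with single ones; the interaction was lower for 2 to 5. Sign changes were all in uncalled values: with single libraries left out HLA-DRA ran from -0.13 to 0.40, HLA-DPA1 from -0.047 to 0.63 and HLA-DQA1 from -0.034 to 0.72 for the knockdown in wild type, and HLA-DQB1 from -0.16 to 0.064 for the knockout under knockdown; with 4 libraries left out HLA-DRA gave -0.23 and HLA-DQB1 0.067. Apart from fewer genes or libraries in the fit, the cause of these changes was not tested.

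With the replicate number as a replicate block, the knockdown in the knockout lowered 5 members, losing HLA-DPA1 (adjusted p = 0.101) and HLA-DPB1 (adjusted p = 0.0543); no other member call changed. The numbers did not pair libraries: none of 33 same-numbered pairs correlated above 0.1 (-0.049 to 0.032), and 3 of 23 libraries matched their own number best. Depth limits HLA-DMA, HLA-DMB and CIITA most; HLA-DMA fell under the filter in some settings.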
